A study of Mus musculus with 8 samples.

Results

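The core circadian clock was examined in primary mouse hepatocytes through 10 genes: Arntl (now named Bmal1), Clock, Npas2, Per1, Per2, Per3, Cry1, Cry2, Dbp and Bhlhe40 (formerly Bhlhb2). The genes were chosen with earlier results of these data known and were matched by symbol in the platform annotation. All 10 were found among the 20289 genes measured. They were represented by 16 of 45281 probes: 6 genes had 1 probe, 2 had 2 probes and 2 had 3 probes. Where a gene had several probes, the one with the highest mean over the 8 arrays stands for it, and the others are given too. Hepatocytes came from male C57Bl/6 mice on normal chow (4 arrays, numbered 1, 2, 3 and 5 in the labels) or on a high fat diet (HFD; 4 arrays, numbered 8, 10, 11 and 12). No other genotype or agent distinguished the groups. After isolation all cells were plated in medium containing 1.5 nM EGF, 400 nM dexamethasone, 100 nM insulin and 10% serum. It was replaced at 4 h by medium whose insulin was 10 nM, and the cells were harvested for RNA 24 h after that. The design text calls the arrays biological replicates. The sources used here do not give the length of the diets, the time of day of isolation or whether an array holds 1 mouse. Each culture was sampled at 1 time, so a change in the level of a cycling RNA and a shift in its phase cannot be told apart.

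The clock is a feedback loop of transcription factors. The proteins of Arntl and Clock, or of Arntl and Npas2, pair and bind E-boxes in DNA, where they activate the Per and Cry genes, Dbp, Bhlhe40 and the Nr1d genes. PER and CRY proteins return to the nucleus and inhibit that pair, Bhlhe40 protein competes for E-boxes as a repressor, and the Nr1d proteins repress Arntl against ROR activators. Dbp protein carries the rhythm onward by binding D-boxes in liver genes of lipid and drug metabolism. Serum and dexamethasone, both in this medium, are known to reset the phase of clocks in cultured cells.

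The elements through which the loop acts were looked for in RefSeq promoters (build GRCm38.p6). Promoters were matched by symbol for 8 of the 10 genes, in 12 windows of 250 bases before an annotated start. Per2 and Bhlhe40 had no matching window and were not searched. Both strands were searched for the E-box CACGTG, the related CACGTT, the D-boxes TTATGTAA and TTATGCAA, the ROR core element AGGTCA and the cAMP response element TGACGTCA. Of all 32851 promoter windows 6.02% held CACGTG, 3.85% CACGTT, 1.50% a D-box, 14.0% AGGTCA and 1.55% TGACGTCA. A window of Per1 and those of Per3 and Cry1 are shown because they held E-boxes or D-boxes. A window of Arntl is shown because the Arntl arrays separated by diet. Bases are in lower case and motif matches on either strand in capitals. No matches of different motifs overlap in the windows shown.
Per1 (chr11:69098699-69098948, + strand): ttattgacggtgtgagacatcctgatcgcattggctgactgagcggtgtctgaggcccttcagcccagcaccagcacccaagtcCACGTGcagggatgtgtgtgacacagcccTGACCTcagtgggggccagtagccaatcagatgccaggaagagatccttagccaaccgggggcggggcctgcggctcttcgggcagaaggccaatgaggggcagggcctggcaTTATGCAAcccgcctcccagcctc
Per3 (chr4:151044666-151044915, - strand): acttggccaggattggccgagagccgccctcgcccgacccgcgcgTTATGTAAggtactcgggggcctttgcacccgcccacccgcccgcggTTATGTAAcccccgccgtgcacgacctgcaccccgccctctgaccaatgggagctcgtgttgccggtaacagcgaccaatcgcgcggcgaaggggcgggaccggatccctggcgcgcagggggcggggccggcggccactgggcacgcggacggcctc
Cry1 (chr10:85185055-85185304, - strand): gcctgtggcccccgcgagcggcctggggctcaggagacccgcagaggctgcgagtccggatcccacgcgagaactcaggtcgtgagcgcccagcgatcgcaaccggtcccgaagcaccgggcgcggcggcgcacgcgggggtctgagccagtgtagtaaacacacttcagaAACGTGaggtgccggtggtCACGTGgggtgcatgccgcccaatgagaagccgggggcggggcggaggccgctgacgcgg
Arntl (chr7:113207215-113207464, + strand): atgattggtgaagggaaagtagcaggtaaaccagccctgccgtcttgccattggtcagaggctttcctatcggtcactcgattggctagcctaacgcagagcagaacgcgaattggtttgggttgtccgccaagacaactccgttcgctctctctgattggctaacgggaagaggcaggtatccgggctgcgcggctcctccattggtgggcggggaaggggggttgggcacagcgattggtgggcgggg
Counted from the start site, the Per1 window shown held CACGTG at -166, the core element at -137 and a D-box at -24. The other Per1 window held 0 matches. The Per3 window held D-boxes at -205 and -158. The Cry1 window held CACGTG at -60 and CACGTT, read on the other strand, at -79. The Arntl window shown held 0 matches, as did the other Arntl window and those of Npas2 and Dbp. Elements outside these windows or with other letters were not searched for, so 0 matches does not mean that a promoter lacks the element. The other matches were CACGTT in Cry2 and AGGTCA in 1 of the 3 Clock windows. A match is a description of the letters only, and neither binding nor promoter activity was measured on these arrays.

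Levels are the authors' deposited log2 values, and differences are HFD minus chow on that scale from limma, with standard error (SE) and a p adjusted by Benjamini-Hochberg over all 20289 genes. The median of all probes was 7.51 and the upper quartile 7.97, so levels near 7.5 lie at the floor of the scale, where a change in RNA is understated. Of the 10 clock genes 8 had a mean above that median and 5 above that quartile (58.8% and 35.5% of all genes). Levels of different probes are not compared. The chow 3 array stood apart from the rest. It correlated with them at r = 0.946 to 0.952 across probes, against 0.989 or more among the other 7, so results are given with and without it. Hepatocyte markers were bright (Apoa1 14.62 and Hnf4a 11.22 in chow), although the Alb and Fgb probes read only 8.37 and 7.47. On chow 3 Apob read 9.7, against 12.7, 12.4 and 12.5 on chow 1, 2 and 5. Each other measured hepatocyte marker except Apoa1 was highest on chow 3 among the chow arrays.

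None of the 10 clock genes passed the threshold in either direction (0 higher and 0 lower in HFD by limma), whereas 4.04% of all genes did, 1.47% higher and 2.57% lower. At an unadjusted p under 0.05 there were 2, Arntl and Bhlhe40, against 14.1% of all genes. In the same 2 genes the HFD arrays did not overlap the chow arrays, a separation seen in 10.7% of all genes. The median difference of the clock genes was 0.02 and the median size of the difference 0.07, beside -0.005 and 0.04 over all genes. Without chow 3 the HFD and remaining chow arrays did not overlap in 5 clock genes (18.0% of all genes), and 1 of them, Bhlhe40, passed (9.17% of all genes).

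**Figure D1:**
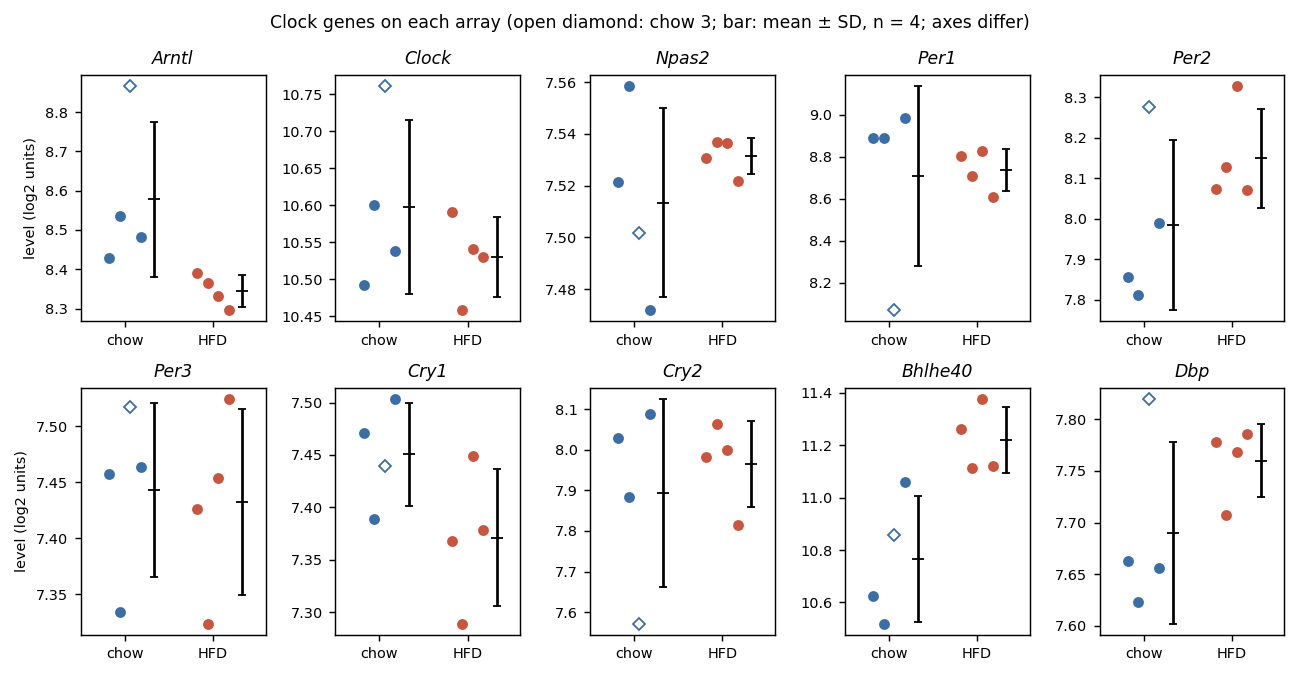
Level of each clock gene (log2 units, y axes differ between panels) on the 4 chow arrays and the 4 HFD arrays, 1 point per array, with chow 3 as an open diamond and the mean ± SD of 4 arrays as a bar. Arntl and Bhlhe40 are the panels in which the diets do not overlap, and chow 3 lies far below the other chow arrays for Per1 and above them for Arntl.

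Bhlhe40, the E-box repressor also induced by many stimuli in liver cells, showed the largest difference of the 10. It read 10.63, 10.52, 10.86 and 11.06 on chow 1, 2, 3 and 5, and 11.26, 11.11, 11.38 and 11.12 on HFD 8, 10, 11 and 12. All 4 HFD arrays were above all chow arrays, although the highest chow array (11.06) came close to the lowest HFD array (11.11). The mean was 10.77 ± 0.24 (SD, n = 4) in chow and 11.22 ± 0.13 in HFD, a difference of 0.45 (SE 0.12, 95% confidence interval 0.18 to 0.73) or 1.37-fold, which missed the threshold in limma (adjusted p = 0.0963). With the array labels permuted in all 70 ways, the exact 2-sided p was 0.0286, the smallest that 4 against 4 arrays allow. Arrays that do not overlap always give this p, so it restates the separation (10.7% of all genes). Such a test was run for each of the 10 genes. Bhlhe40 passed without chow 3 (0.48, adjusted p = 0.0489), without chow 5 (0.55, adjusted p = 0.0283), with array weights (0.53, adjusted p = 0.0212) and with trend and robust moderation (0.45, adjusted p = 0.0347). In the 15 other settings tried its difference was 0.37 to 0.55 and its adjusted p 0.0212 to 0.246, so the direction was the same in each and the call was not.

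Among the activators, Arntl was lower in every HFD array than in any chow array, by a small step. Arntl read 8.43, 8.54, 8.87 and 8.48 on chow 1, 2, 3 and 5, and 8.39, 8.36, 8.33 and 8.30 on HFD 8, 10, 11 and 12. The 4 HFD values lay within 0.1 of each other, and chow 3 was the high one among the chow arrays, 0.38 above the mean of the other 3. The difference was -0.23 (SE 0.09, 95% confidence interval -0.44 to -0.03, adjusted p = 0.279 by limma; exact permutation p = 0.0286), or 0.851 of the chow level. Without chow 3 the difference was -0.14 (SE 0.04, adjusted p = 0.0667), with the diets still apart. The value thus moved by over 1.5 times with 1 array and did not pass in either case.

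Clock, the partner of Arntl, overlapped between the diets. Its brightest probe read 10.49, 10.60, 10.76 and 10.54 in chow and 10.59, 10.46, 10.54 and 10.53 in HFD, in the same array order. The difference was -0.07 (95% confidence interval -0.21 to 0.07, adjusted p = 0.741 by limma), and -0.01 without chow 3. The other 2 Clock probes were dimmer, with means of 7.70 and 7.43 and differences of -0.10 and 0.01. Npas2, the Clock paralogue that can replace it, read 7.47 to 7.56 in chow and 7.52 to 7.54 in HFD, at the floor of the scale, with a difference of 0.02 (95% confidence interval -0.04 to 0.08). At that floor the interval limits the array signal, not the RNA.

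The Per genes, which encode the inhibitors that accumulate and decay over the day, did not move as a set. Per1 read 8.89, 8.89, 8.07 and 8.98 in chow and 8.80, 8.71, 8.83 and 8.61 in HFD. The low chow 3 value, which differed by -0.85 from the average of chow 1, 2 and 5, placed every HFD array inside the chow range. With it the difference was 0.03 (SE 0.19, 95% confidence interval -0.42 to 0.47, adjusted p = 0.981 by limma). Without it all HFD arrays lay below the remaining chow arrays and the sign turned, to -0.19 (SE 0.06, adjusted p = 0.0931). The second Per1 probe was low on chow 3 as well (7.72 against 7.95 to 8.17 on the other chow arrays) and differed by -0.07, or -0.15 without chow 3, where the diets overlapped. Per1 therefore has no settled direction in these arrays.

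Per2 read 7.86, 7.81, 8.28 and 7.99 in chow and 8.07, 8.13, 8.33 and 8.07 in HFD. Chow 3 was the high chow array here, and no other chow array reached the HFD values. The difference was 0.17 (SE 0.11, adjusted p = 0.608 by limma) with all arrays and 0.26 (SE 0.07, 95% confidence interval 0.10 to 0.43, adjusted p = 0.0578) without chow 3. The second Per2 probe was also high on chow 3 among the chow arrays, at 7.72, 7.72, 8.10 and 7.91 in chow and 8.12, 8.04, 8.19 and 8.11 in HFD. Its difference was 0.25 (adjusted p = 0.276 over all 45281 probes). Without chow 3 that became 0.33 and passed (adjusted p = 0.00813), a setting chosen after seeing the data. The third Per2 probe lay at the floor, with a mean of 7.53 and a difference of 0.02. Both brighter probes thus gave the same sign with and without chow 3, and the call rested on which probe was read and on that array.

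Per3, the period gene with the mildest role in the mouse clock, lay at the floor on every array, from 7.33 to 7.52 in chow and from 7.32 to 7.52 in HFD. Its difference was -0.01 (95% confidence interval -0.14 to 0.11). The diets overlapped throughout, and nothing about Per3 RNA can be read from values that low.

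**Figure D2:**
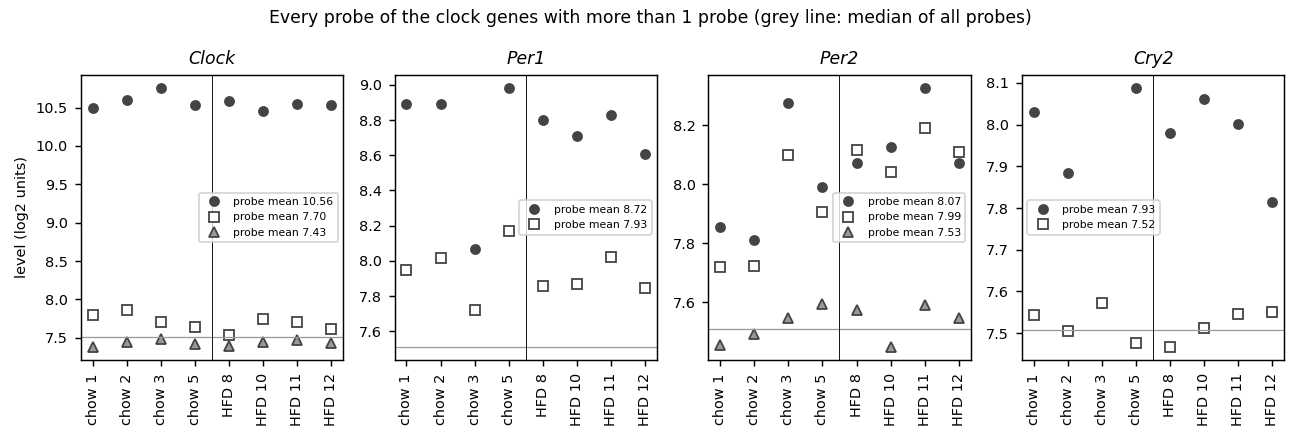
Level (log2 units) on each array for every probe of Clock, Per1, Per2 and Cry2, the genes with more than 1 probe; each marker shape is a probe, named by its mean, and the grey line is the median of all probes, 7.51. The 2 brighter Per2 probes move together, both Per1 probes are low on chow 3, the dimmer Clock and Cry2 probes lie near the grey line, and on chow 3 both Cry2 markers coincide at 7.57.

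The Cry genes encode the stronger repressors of the loop. Cry1 lay at the floor, at 7.47, 7.39, 7.44 and 7.50 in chow and 7.37, 7.29, 7.45 and 7.38 in HFD. In HFD 3 of 4 arrays were below all chow arrays, but HFD 11 lay within the chow range. The difference was -0.08 (SE 0.04, 95% confidence interval -0.18 to 0.02, adjusted p = 0.482 by limma). Cry2 read 8.03, 7.88, 7.57 and 8.09 in chow and 7.98, 8.06, 8.00 and 7.82 in HFD. All HFD values fell inside the chow range, which chow 3, at -0.43 from the mean of the others, widened downwards. The difference was 0.07 (SE 0.11, adjusted p = 0.884) and turned to -0.04 without chow 3, and the second Cry2 probe, with a mean of 7.52, differed by -0.01.

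Dbp, the D-box activator whose RNA swings widely over the day in mouse liver, was dim in these cultures. It read 7.66, 7.62, 7.82 and 7.66 in chow and 7.78, 7.71, 7.77 and 7.79 in HFD. Chow 3 was above every HFD array and the other chow arrays were below every HFD array. The difference was 0.07 (SE 0.05, adjusted p = 0.624 by limma), and 0.11 (SE 0.03, 95% confidence interval 0.04 to 0.19, adjusted p = 0.0743) without chow 3. Neither value passed, and both are small on a scale where dim probes are compressed.

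**Figure D3:**
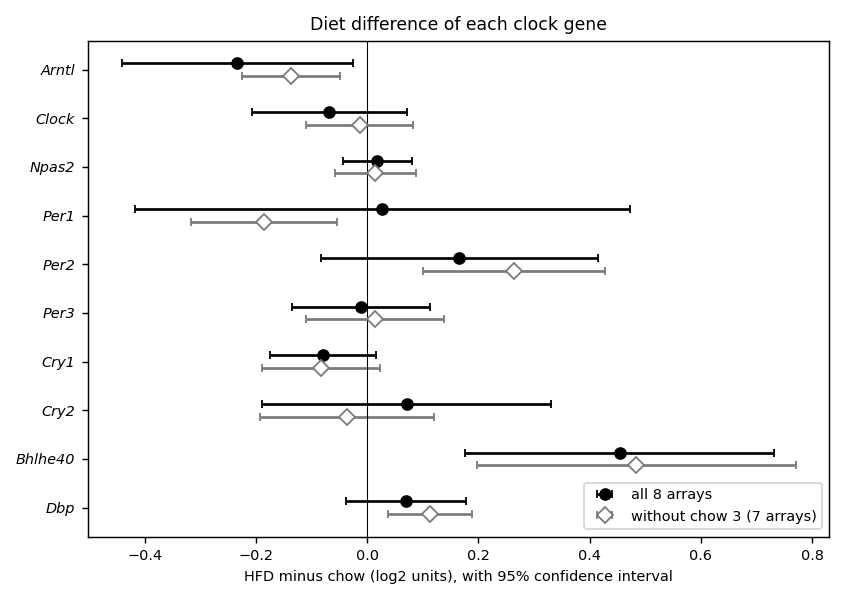
Difference HFD minus chow (log2 units) of each clock gene with its 95% confidence interval from limma, over all 8 arrays (filled circles) and over 7 arrays without chow 3 (open diamonds). With all arrays the intervals of Arntl and Bhlhe40 do not include 0, before adjustment over all genes; without chow 3 those of Per1, Per2 and Dbp do not include 0 either.

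Chow 3 changed the picture in different directions by gene. A common shift could not be seen, because the deposited values already shared 1 distribution over the arrays. Among the 4 chow arrays chow 3 was the highest for 5 clock genes and the lowest for 2, and it was the highest or the lowest for 69.1% of all genes. Its distance from the mean of the other chow arrays ran from -0.85 for Per1 and -0.43 for Cry2 to 0.38 for Arntl and 0.39 for Per2, larger in each of these 4 than the diet difference with all 8 arrays. The SD was greater in chow than in HFD for 8 of the 10 genes, as for 67.8% of all genes. For 5 clock genes the 95% confidence interval of the difference lay within 0.25 log2 units of 0 on either side, and of these only Clock had a mean above the upper quartile of probes.

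The second loop of the clock and the relatives of Dbp showed no member past the threshold. Of 10 genes 8 had a probe, and of these 0 rose and 0 fell. At an unadjusted p under 0.05 by limma there was 1 (Hlf), against 14.1% of all genes. The list median was -0.05. Nr1d1, the repressor of Arntl, read 7.52 in chow and 7.45 in HFD (-0.07, adjusted p = 0.455 by limma), at the floor. Its relative Nr1d2 read 8.00, 8.01, 8.39 and 8.02 in chow and 8.13, 7.99, 8.23 and 8.25 in HFD (0.05, adjusted p = 0.919), again with chow 3 as the high chow array. Rora, an activator of Arntl, read 9.88 in chow and 9.80 in HFD (-0.08, adjusted p = 0.823), and its relative Rorb differed by -0.04 near the floor. Among relatives of Dbp, Tef differed by -0.07 (adjusted p = 0.697). Hlf, near the floor at 7.50 in chow and 7.55 in HFD, differed by 0.06 (adjusted p = 0.300). All its HFD arrays were above all chow arrays, and 10.7% of all genes had arrays that did not overlap. The repressor genes Bhlhe41 (-0.06) and Ciart (0.05) lay near the floor.

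Of 18 measured kinases, ubiquitin ligases and cofactors that act on clock proteins, 1 fell and 0 rose, beside 4.04% of all genes that passed. Gsk3b, a kinase that phosphorylates several clock proteins, fell from 9.18 ± 0.11 to 8.88 ± 0.08 (-0.30, SE 0.06, adjusted p = 0.0420 by limma). Without chow 3 the list had 1 higher and 2 lower, beside 9.17% of all genes that passed. The list median was then 0.07, against 0.02 with all arrays. The 3 list genes, named after their values were seen, were Cipc, an inhibitor of Clock (0.20, adjusted p = 0.0479), the kinase subunit Csnk2a1 (-0.25, adjusted p = 0.0496) and Gsk3b (-0.28, adjusted p = 0.0350). Of 15 measured liver genes controlled by the clock or by Dbp and its relatives, 1 fell and 0 rose, beside 4.04% of all genes. The median of that list was 0.03. Cyp2b10, a drug-metabolising cytochrome P450, fell from 9.70 ± 0.14 to 9.24 ± 0.13 (-0.46, SE 0.09, adjusted p = 0.0255), and without chow 3 by 0.39.

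Because dexamethasone was in the medium of every culture and Per1 is a known glucocorticoid target, genes of that response are given beside the clock. Of 12 measured, 1 rose and 0 fell, beside 4.04% of all genes that passed, and the list median was 0.04. At an unadjusted p under 0.05 by limma there were 5, against 14.1% of all genes. Klf9 and Igfbp1 were higher, and Dusp1 (-0.30), Sgk1 (-0.34) and, near the floor, Pck1 (-0.08) were lower. Klf9, a glucocorticoid-induced factor that also cycles in liver, rose from 10.73 ± 0.12 to 11.24 ± 0.09 (0.51, SE 0.07, adjusted p = 0.00662 by limma). Without chow 3, 3 of the list rose: Klf9, Errfi1 (0.36) and Igfbp1 (0.37), the last 2 named after their values were seen. Of all genes 9.17% then passed. Of 9 immediate early and cAMP-responsive genes 0 passed, and 1 had an unadjusted p under 0.05. In that list Egr1 differed by 0.81 (adjusted p = 0.121) and Fos by -0.24 (adjusted p = 0.434). Their part in the values of Per1, Per2 or Bhlhe40 was not tested.

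**Figure D4:**
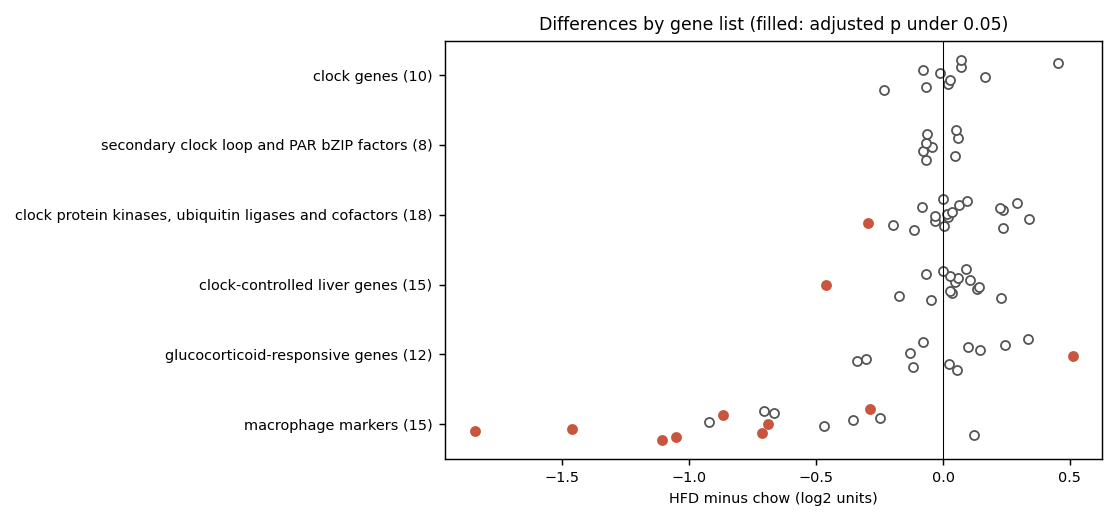
Difference HFD minus chow (log2 units) of each measured gene in 6 lists, with the number of genes in brackets; filled points passed an adjusted p of 0.05 in limma. The clock genes have no filled point, the clock-related lists have 0 or 1 each, and 8 of 15 macrophage markers are filled, all lower in HFD. Of all genes 4.04% passed.

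Many macrophage and sinusoidal endothelial markers were lower in HFD on the same arrays, though 1 macrophage and 2 endothelial markers had positive differences. Of 15 macrophage markers 8 fell and 0 rose in HFD (2.57% and 1.47% of all genes), with a list median of -0.71. The log2 values of the macrophage markers, added up on each array, gave 134.0 to 135.2 in chow and 120.5 to 124.9 in HFD. Such a sum of log2 values is not a total signal. Of 10 sinusoidal endothelial markers 4 fell and 0 rose, with summed log2 values of 81.2 to 83.9 in chow and 78.2 to 79.1 in HFD. Fcer1g (-1.84), Laptm5 (-1.46) and Adgre1 (-1.11) led the macrophage list. The 4 endothelial genes were Fcgr2b (-1.37), Lyve1 (-0.80), Cdh5 (-0.78) and Stab2 (-0.38). Without chow 3, 12 macrophage markers fell and 0 rose, and 7 endothelial markers fell and 1 rose, Clec4g (0.33). Of all genes 9.17% then passed. Of 10 stellate cell markers 1 fell, Sparc (-0.89). Of 5 lymphocyte and 4 bile duct markers 0 passed by limma; by unadjusted p under 0.05 there were 0 and 1. The genes with the smallest p there were Ms4a1 (-0.04), Nkg7 (0.05), Krt19 (0.11) and Sox9 (-0.23). Of 9 hepatocyte markers 1 rose, Cps1 (0.51, adjusted p = 0.0105). In such cultures fewer cells of a type and less RNA per cell cannot be told apart. The part of these cells in the clock gene values was not tested.

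Bhlhe40 had the smallest p of the 10, so the genes whose pattern was most like it were listed. Among 10137 other genes with a mean above the median gene, the 5 with the highest Pearson correlation over the 8 arrays were Nol10 (r = 0.971), Slc1a4 (0.969), Rpl30 (0.965), R3hdm2 (0.958) and Cldn4 (0.954). Without chow 3 these were 0.977, 0.969, 0.968, 0.962 and 0.952. The 8 points share the diet groups and 1 normalization, so the correlations describe these arrays only. All 5 were higher in HFD, which largely follows from their choice by likeness to Bhlhe40, whose HFD arrays were all higher. Nol10 (0.33, adjusted p = 0.0363 by limma) and Cldn4 (0.58, adjusted p = 0.0134) passed, and these calls are not separate evidence on Bhlhe40.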

How the data were processed

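RNA of cultured hepatocytes was hybridised to 8 Illumina bead arrays of 1 colour. The deposited table held the authors' log2 values of 45281 probes, already sharing 1 distribution over the arrays. Per the submitters' processing notes they used lumi; the sources used here do not state its version, its steps or whether the scale is variance-stabilised. Detection p-values and probe sequences were not used here, and 0 columns were left unused. The number of arrays limits the precision.

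Gene names came from the platform annotation, updated through RefSeq tables of GRCm38.p6 (35784 probes, 20289 genes). HFD was compared with chow by lmFit and eBayes in limma 3.58.1 under R 4.3.3, 2-sided, over all genes, with a threshold of 0.05 after Benjamini-Hochberg adjustment. The limma p-values set each difference against the spread between these arrays, moderated over all genes by eBayes. Whether that spread is between mice or between cultures is not given in the sources used here. Each clock gene also had an exact permutation test (scipy 1.17.1). The fit was tested on simulated data. Alternatives were another normalization, centring, array weights, moderation, probe choice, filters on dim probes and leaving out each array.

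The members and gene lists were chosen with earlier results of these data known. Lists are described by counts and medians, and no list was tested as a set. Genes named were all 10 members, all of the second loop, up to 3 of each other list that passed, by size of difference (where none passed, the 2 lowest p-values), and the 5 most like the member of lowest p. Named outside this rule, after their values were seen, were Cipc, Csnk2a1, Errfi1, Igfbp1, Dusp1, Sgk1, Pck1, Stab2, Clec4g, Apoa1, Apob, Hnf4a, Alb and Fgb.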

Additional observations from a re-analysis of the deposited data

Results flagged for a closer look

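Of 82 groups of 4 arrays checked, for the 16 clock probes and for the genes named by rule in the other lists, 9 held an array whose gap to its nearest neighbour took more of the group's range than Dixon's 95% critical value; chance alone gives about 5%. Among clock genes this was Per1, whose brightest probe read 8.07 on chow 3 against a mean of 8.92 on the other chow arrays, and whose second probe read 8.02 on HFD 11 against 7.86. Chow 3 was also the far array for Nr1d2 (8.39 against 8.01) and Cyp2b10 (9.92 against 9.63). The rest were Gsk3b on chow 1 (9.02 against 9.23), Cps1 on chow 1 (8.18 against 8.47), Lyve1 on chow 5 (8.21 against 8.68), Fos on HFD 8 (7.80 against 8.14) and Ms4a1 on HFD 11 (7.42 against 7.47, near the floor).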

How the results depend on the processing

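Over 16 other settings, and 1 more chosen after seeing the data, 0 clock genes were called lower in HFD. The number called higher was 0 or 1. It was 1 with array weights, 1 with trend and robust moderation, between 0 and 1 when each array was left out (Bhlhe40, without chow 3 or chow 5), and 1 when every probe was tested without chow 3 (Per2, the setting chosen after seeing the data). The count of all genes that differed was 820, 1603 with array weights, 1861 without chow 3 and down to 447 without HFD 12. Bhlhe40, Arntl, Per2, Dbp, Clock, Npas2 and Cry1 kept their sign in each alternative in which they were tested. Per3 and Cry1 had no value under either filter on dim probes, and Npas2, Cry2 and Dbp none under the stricter one. Per1 turned to -0.14 with array weights and -0.086 with the mean of its probes, which includes the probe annotated Per, and ran from -0.19 to 0.12 when arrays were left out. Per3 turned to 0.019 with array weights and ran from -0.047 to 0.025 when arrays were left out, and Cry2 from -0.036 to 0.14. The cause was not tested. With 4 arrays a diet, small differences in genes near the floor of the scale cannot be resolved.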

Other observations

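A further probe, annotated with the older symbol Per and matched to Per1 through a synonym, was not counted among the 16. It read 7.69, 7.72, 8.23 and 7.80 on chow 1, 2, 3 and 5, and 7.51, 7.63, 7.70 and 7.73 on HFD 8, 10, 11 and 12. It was the highest on chow 3, 0.50 above the mean of the other chow arrays, where both counted Per1 probes were the lowest, at -0.85 and -0.32 from theirs. Its difference between the diets was -0.22 (adjusted p = 0.616 by limma over all probes), and -0.09 without chow 3. Which transcript each probe reads was not tested.

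Without chow 3, 5 clock genes had arrays that did not overlap between the diets (18.0% of all genes), with Arntl and Per1 lower and Per2, Bhlhe40 and Dbp higher in HFD. Per1 and Per2 lay on opposite sides, at -0.19 and 0.26; the difference between them was not tested.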
